A study of Mus musculus with 2 samples.

Results

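The myostatin, activin and follistatin axis was examined in fetal mouse esophagus as 10 genes: the ligand genes Mstn, Gdf11, Inhba and Inhbb, the receptor genes Acvr1b, Acvr2a and Acvr2b, the antagonist genes Fst and Fstl3, and the follistatin-related gene Fstl1. Its members were every probe set whose single gene symbol in the platform annotation was one of these names. That gave 17 of the 34945 single-symbol probe sets, for 9 of the 18193 named genes; Mstn had no such probe set, and its expression was not analysed here. One array was made from the esophagus of embryos labelled null for both Myf5 and Myod1 on a BALB/c background, and 1 from wild-type BALB/c esophagus, both at E18.5, late in gestation. The MYF5 and MYOD1 proteins are transcription factors that start the skeletal muscle program, and by its title the series concerns how striated muscle takes the place of smooth muscle in the esophagus. Neither genotype had a replicate, the sources used here do not give the number of embryos behind each RNA sample, and no difference below carries a test.

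Myostatin, its close relative GDF11 and the activins are secreted ligands of the TGF-beta superfamily. They bind a type II receptor (ACVR2A or ACVR2B), which recruits a type I receptor such as ACVR1B (ALK4), and the complex phosphorylates SMAD2 and SMAD3. Follistatin and FSTL3 bind these ligands and keep them from their receptors. In skeletal muscle, myostatin is known as a brake on muscle growth and follistatin as a factor that releases it.

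Values are MAS5 signals, in arbitrary units on a linear scale, which summarise the probes of a probe set. Both arrays had been brought to the same trimmed mean, 1500. A low-signal limit of 489, which is the pooled median signal of the 2 arrays without their control spots, stood in for detection calls. Lower signals were set to this limit before a ratio was taken, so a gene under the limit on 1 array has a bound ("at least N-fold"), and a gene under it on both arrays has no ratio. A gene with several probe sets was represented by the measured one with the highest mean signal. Of the 9 genes, 6 were measured, 1 of these only as a bound, and 3 (Gdf11, Acvr2b and Fstl3) lay below the limit on both arrays. Log2 ratios of probe sets that share a gene, bounds included, differed with an SD of 0.56, pooled over 5455 genes. It is the only error available here, and it leaves out all variation between embryos.

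On the null-labelled array, Fst read 2.73-fold lower and Inhba, the activin A subunit gene, 2.52-fold higher than on the wild-type array. The other 4 measured genes, Inhbb, Acvr1b, Acvr2a and Fstl1, had ratios within 2-fold. Thus 1 of 6 measured genes was at least 2-fold lower and 1 of 6 at least 2-fold higher, where 5.35% of the 13351 measured genes of the array were that much lower and 5.99% that much higher. With 6 genes these counts do not set the axis apart from the rest. Its median log2 ratio was -0.08, against 0.09 for all measured genes. The split of all genes depended on the scaling: 714 lower and 800 higher as deposited became 831 and 612 after centring on the median ratio, 821 and 560 with quantile normalization, and 938 and 449 with loess on signal, which also took the median ratio of all genes to -0.02. The axis counts of 1 and 1 were the same under each of these 3 scalings.

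**Figure D1:**
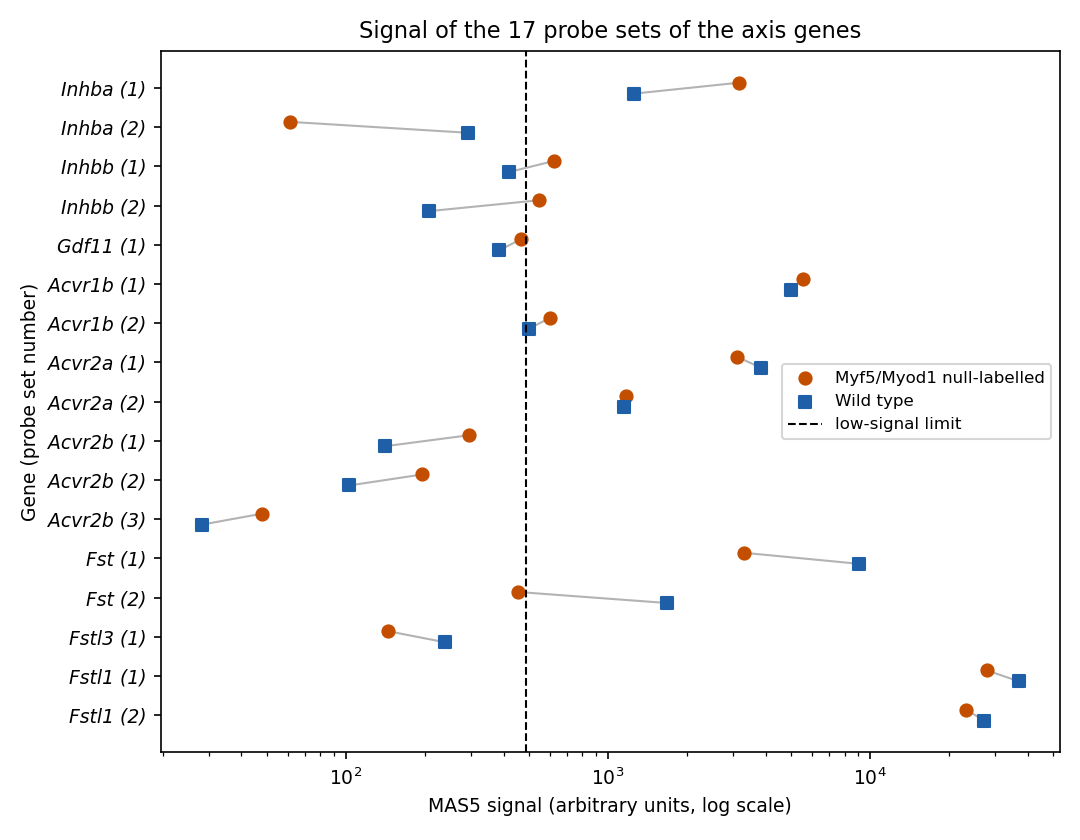
MAS5 signal on a log axis for the 17 probe sets of the axis genes, numbered within each gene; circles are the null-labelled array, squares the wild-type array, and the dashed line is the low-signal limit of 489. Both Fst probe sets lie lower on the null-labelled array, and the brighter Inhba probe set lies higher there.

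The targeted genes and the tissue markers were read first. Myf5 had a signal of 496 on the null-labelled array and 4072 on the wild-type array. Myod1 read 1698 on the null-labelled array and 2001 on the wild-type array at its brighter probe set, and 292 and 321, below the limit, at its other probe set on the same arrays. The sources used here do not say where these lie relative to the deletion, so they do not check the label. All 10 striated muscle markers were at least 2-fold lower on the null-labelled array, with signals summing to 6963 there and 392204 on the wild-type array; Myh3 and Acta1, the brightest, were 161-fold and 74.4-fold lower. Smooth muscle markers summed to 650187 on the null-labelled array and 321319 on the wild-type array (2 of 8 at least 2-fold higher, 0 lower), but the sums rest mostly on Mylk, 2.83-fold higher (log2 ratios of 1.86 and 0.08 at its other probe sets), and Acta2, 1.85-fold higher. The list had a median log2 ratio of 0.55 and 2 of 8 ratios below 0, Cnn1 at 1.69-fold lower and Tagln at 1.38-fold lower. Squamous epithelial markers, which the esophagus should hold, summed to 462288 on the null-labelled array and 386286 on the wild-type array, largely through the brighter Krt4 probe set. The other Krt4 probe set ran the opposite way, with a log2 ratio of -0.25. The squamous markers had a median log2 ratio of -0.16, with 1 of 7 at least 2-fold lower (Krt14, 2.46-fold) and 0 higher. Fibroblast and matrix markers summed to 457930 on the null-labelled array and 330506 on the wild-type array, with a median of 0.18, 1 of 8 at least 2-fold lower (Postn, 2.31-fold) and 0 higher. The 5 lists for cartilage, airway, endothelium, enteric neurons and white blood cells had 3 or 4 measured markers each. Single markers differed widely, also within a list. Ptprc was 8.57-fold, Lyz2 2.20-fold, Emcn at least 2.19-fold and Sox9 2.09-fold higher. Sox9 was not past 2-fold after centring, with loess or with the limit at the 75th percentile. Emcn was not with quantile normalization, loess or that limit, and each of these left 1 white blood cell marker that much higher. Scgb3a2 was 7.66-fold, Ret 2.38-fold, C1qb 2.06-fold and Snap25 2.03-fold lower. C1qb was not past 2-fold with quantile normalization, nor were Ret and Snap25 with the 75th percentile limit. Second probe sets of Ret, Snap25 and C1qb had log2 ratios of -0.02, 0.25 and -0.19, the first 2 as bounds. Csf1r (white blood cells) and Elavl4 (neurons) stood at 0.01 at their brightest probe sets and between 0.25 and 0.72 at others. Sftpc and Sftpb, listed with Scgb3a2, were 1.68-fold and at least 1.63-fold higher. Median log2 ratios of the 5 lists lay between -0.93 (enteric neurons) and 0.70 (airway), but the first was 0.01 and the second -0.60 when the limit was set at the 75th percentile. In this paragraph Cnn1, Tagln, Krt14, Postn, Ptprc, Lyz2, C1qb, Csf1r, Emcn, Sox9, Scgb3a2, Sftpc, Sftpb, Ret, Snap25 and Elavl4 were chosen after their values were seen. In whole tissue, fewer cells of a type and less RNA per cell cannot be told apart. The arrays also differed in ways not tied to 1 cell type: 55.4% of probe sets reached the limit on the null-labelled array and 44.6% on the wild-type array, and the 3' to 5' control ratio, a sign of RNA integrity, was 14.2 for beta-actin and 6.96 for Gapdh on the null-labelled array, against 12.6 and 10.5 on the wild-type array. On both arrays the 3' control probe sets thus read at least 6.96-fold above the 5' ones, a 3' bias shared by the 2 samples. What this bias and the differences between the arrays add to the ratios below was not tested.

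The ligands are taken first. Inhba was represented by its brighter probe set, which read 3178 on the null-labelled array and 1261 on the wild-type array. Its log2 ratio of 1.33 exceeded the 0.56 SD between probe sets of 1 gene, and 242 of the 13351 measured genes (1.81%) had a higher ratio. Among the 5057 genes whose mean signal lay within 2-fold of that of Inhba, 4.59% were at least 2-fold higher. The second Inhba probe set ran the opposite way, at 61.0 on the null-labelled array and 293 on the wild-type array. Both of its signals lay below the limit, so the difference for Inhba rests on 1 probe set. Of the 8 smooth muscle markers, 6 had ratios above 0, against 56.7% of all measured genes, and 2 were at least 2-fold higher. Their median log2 ratio of 0.55 was not the highest: cartilage stood at 0.62, airway at 0.70 and white blood cells at 0.57. Squamous epithelium and enteric neurons had medians below 0, at -0.16 and -0.93. The part of any of these cell types in the Inhba value was not tested.

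Inhbb encodes the activin B subunit. Its probe sets read 622 and 548 on the null-labelled array, against 420 and 208 on the wild-type array. Both crossed the limit in the same direction and give bounds of at least 1.27-fold and at least 1.12-fold higher, or 0.35 and 0.16 on the log2 scale. With loess on signal the ratio of Inhbb was -0.01, so its direction is not settled. Such crossings were common: 6609 probe sets of all kinds were below the limit on the wild-type array only, and 1738 on the null-labelled array only.

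Gdf11 was dim on both arrays. Its probe set read 465 on the null-labelled array and 385 on the wild-type array, under the limit in both, and has no ratio.

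Among the receptors, Acvr1b and Acvr2a were measured by both of their probe sets and stayed within 2-fold. Acvr1b, the type I receptor gene, read 5571 on the null-labelled array and 5004 on the wild-type array, a log2 ratio of 0.15. Its dimmer probe set read 603 on the null-labelled array and 499.7 on the wild-type array (0.27). The 2 values lay 0.12 apart and both were under the SD of 0.56. Acvr2a, a type II receptor gene, read 3117 on the null-labelled array and 3851 on the wild-type array, a log2 ratio of -0.31. Its second probe set read 1178 on the null-labelled array and 1153 on the wild-type array, a ratio of 0.03. The probe sets of Acvr2a therefore differ in sign, and neither value exceeds the SD. A further probe set is shared by Acvr2a and the replication gene Orc4 in the annotation and was not counted; it read 361 on the null-labelled array and 176 on the wild-type array.

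Acvr2b, the other type II receptor gene, was below the limit at all 3 of its probe sets. They read 294, 196 and 48.0 on the null-labelled array, against 141, 103 and 28.2 on the wild-type array. All 3 read higher on the null-labelled array, as did 63.2% of the 18345 probe sets that were below the limit on both arrays, whose median log2 ratio without the limit was 0.46. The 3 Acvr2b values without the limit were 1.06, 0.92 and 0.77. No difference in Acvr2b is drawn from signals this low.

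Of the antagonists, Fst read lower at both probe sets. The brighter had a signal of 3319 on the null-labelled array and 9074 on the wild-type array, a log2 ratio of -1.45. The dimmer read 456 on the null-labelled array, under the limit, and 1676 on the wild-type array, which makes it at least 3.43-fold lower (a log2 bound of -1.78). With the dimmer probe set taken at its bound, the values of Fst lay 0.33 apart, with an SD of 0.23 against the pooled SD of 0.56. Each value exceeded the pooled SD in size. Without the limit the dimmer probe set stood at -1.88, so 0.33 and 0.23 are minimum values. Of the 5455 genes with at least 2 measured probe sets, 0.917% had every one of them at least 2-fold lower. By its brighter probe set, 317 of the 13351 measured genes (2.37%) had a lower ratio than Fst. Among the 3051 genes whose mean signal lay within 2-fold of that of Fst, 7.05% were at least 2-fold lower. After centring on the median ratio of all genes, Fst stood at -1.54 and Inhba at 1.25. The striated muscle markers named above were lower too, with a median log2 ratio of -6.07, and their part in the Fst value was not tested.

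Fstl3, which encodes a second activin and myostatin binding protein, read 145 on the null-labelled array and 238 on the wild-type array. It was below the limit on both, so whether it followed Fst could not be measured.

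Fstl1 encodes a secreted glycoprotein with a follistatin domain. Its probe sets read 27925 and 23248 on the null-labelled array, against 37023 and 27252 on the wild-type array. Both were lower on the null-labelled array, with log2 ratios of -0.41 and -0.23, which is within the SD of 0.56 between probe sets.

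**Figure D2:**
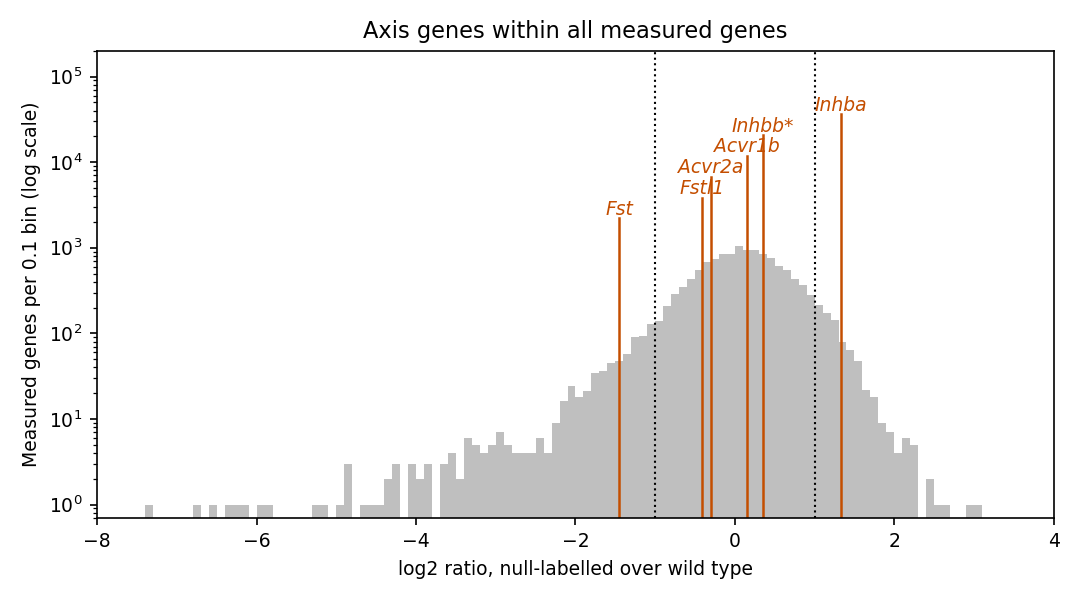
Histogram of the log2 ratio, null-labelled over wild type, of the 13351 measured genes in bins of 0.1 with a log count axis; vertical lines mark the 6 measured axis genes, dotted lines a 2-fold difference, and the asterisk a bound. Fst at -1.45 and Inhba at 1.33 lie outside the dotted lines, and the other 4 genes lie between -0.41 and 0.35.

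Promoter windows, from 250 bases before to 50 after the gene start, were in the RefSeq table (GRCm38.p6) for 9 of the 10 genes: Mstn, Gdf11, Inhba, Inhbb, Acvr1b, Acvr2a, Acvr2b, Fstl3 and Fstl1. The E-box CANNTG is the general target sequence of basic helix-loop-helix factors such as MYF5 and MYOD1, and it reads the same on both strands. It was present in 4 of these 9 windows (Mstn, Gdf11, Acvr1b and Fstl3) and in 72.3% of all 32851 windows of that length. Its variant CAGCTG, counted within CANNTG as well, was present in 1 of the 9 (Gdf11) and in 16.3% of all windows. The upstream bases of Inhba are shown because it is the gene more than 2-fold apart that has a window. They lie at chr13:16011601-16011850 on the plus strand and hold 0 copies of CANNTG, which would stand in capitals:

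Inhba: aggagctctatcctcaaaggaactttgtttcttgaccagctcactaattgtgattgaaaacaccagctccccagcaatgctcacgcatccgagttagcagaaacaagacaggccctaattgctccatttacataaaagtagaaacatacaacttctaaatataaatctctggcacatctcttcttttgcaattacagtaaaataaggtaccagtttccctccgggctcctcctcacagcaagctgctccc

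The absence says only that these letters are not in this window.

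The rest of the pathway was followed in 6 lists of 64 genes, of which 49 were measured, 12 of these as bounds. At least 2-fold lower on the null-labelled array were 4 of the 49 (8.16%), namely Tgfb2, Tgfbr2, Smurf1 and Cdkn1a, and 1 (2.04%), Foxh1, was at least 2-fold higher, against the 5.35% and 5.99% of all measured genes given above. The median log2 ratio over these genes was 0.24, against 0.09 for all measured genes.

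Related ligands had 9 of 11 genes measured, with 1 lower and 0 higher. Tgfb2, a TGF-beta ligand gene, read 1499 on the null-labelled array and 4711 on the wild-type array, 3.14-fold lower, and the log2 ratios at its other probe sets were -1.60 and -0.36. Tgfb1 was at least 1.87-fold higher and Inhbe, the activin E subunit gene, at least 1.55-fold higher, both from wild-type signals under the limit. The list median was 0.29 and rests on 5 bounds; with a limit at the 25th percentile or none, 3 genes were at least 2-fold higher. The median was -0.20 with loess and -0.92 when the limit was set at the 75th percentile.

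Of the 9 other receptors and coreceptors, 6 were measured, with 1 lower and 0 higher (median -0.16, but 0.24 with no limit). Tgfbr2, the type II receptor gene for TGF-beta, read 3498 on the null-labelled array and 7243 on the wild-type array, 2.07-fold lower, and was within 2-fold with quantile normalization or loess. Tgfbr1, the matching type I receptor gene, was 1.47-fold lower. Cfc1, which encodes a Nodal coreceptor, was 1.72-fold higher.

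Extracellular binding and activation genes, 8 of 12 measured, held none past 2-fold, and 7 of the 8 ratios lay above 0, against 56.7% of all measured genes. With a limit at the 25th percentile or none, 2 of these genes were past 2-fold, both higher. The shares of all measured genes that much higher were then 16.6% and 19.5%. Dcn is also in the fibroblast and matrix list. Bmp1, a protease that frees myostatin and GDF11 from their propeptides, read 2098 on the null-labelled array and 1156 on the wild-type array, 1.82-fold higher. Hspg2, the perlecan gene, was 1.45-fold higher, and the proprotein convertase gene Pcsk5 was 1.38-fold lower with a second probe set at 0.30 on the log2 scale. The list median of 0.29 lay between 0.21 and 0.44 over the 8 alternatives.

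All 13 intracellular signalling genes were measured, with 1 lower and 1 higher (median 0.06). Smurf1, a ubiquitin ligase gene that acts on SMADs and receptors, read 671 on the null-labelled array and 1444 on the wild-type array, 2.15-fold lower. Foxh1, a SMAD2 partner factor gene, read 1878 on the null-labelled array and 293 on the wild-type array, at least 3.84-fold higher. Tgif1, a SMAD corepressor gene, was 1.80-fold higher. The median was -0.03 after centring, and neither Smurf1 nor Foxh1 was past 2-fold when the limit was set at the 75th percentile.

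SMAD response genes had 8 of 11 measured, with 1 lower and 0 higher, and a median of 0.09 that was below 0 in 5 of 8 alternatives. Cdkn1a, a cyclin-dependent kinase inhibitor gene that MYOD1 also induces in muscle cells, read 12278 on the null-labelled array and 24722 on the wild-type array, 2.01-fold lower. Its second probe set had a log2 ratio of -1.45, and the brighter one was within 2-fold with quantile normalization or loess. With a limit at the 25th percentile or none, 2 genes of the list were lower. Id3 was 1.64-fold higher, and Pmepa1, a feedback inhibitor gene of SMAD signalling, was 1.42-fold lower with a second probe set at 0.14.

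BMP antagonists, followed for comparison with the follistatins, had 5 of 8 measured and none past 2-fold (median 0.17, below 0 in 3 of 8 alternatives). However, 1 was at least 2-fold higher with a limit at the 25th percentile and 2 were with none. The shares of all measured genes that much higher were then 16.6% and 19.5%. Grem1 was 1.36-fold higher, Twsg1 was 1.25-fold lower with a second probe set bounded at 0.74, and Bambi, a decoy receptor gene, was at least 1.14-fold higher.

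**Figure D3:**
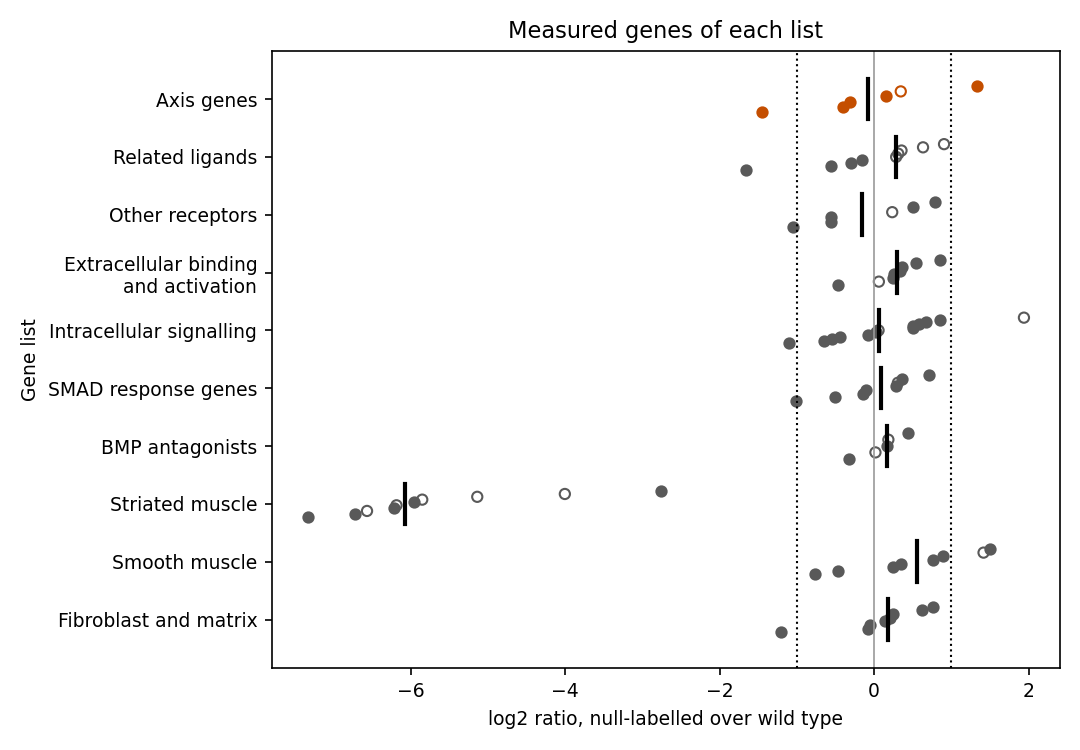
Log2 ratio, null-labelled over wild type, of each measured gene in the axis, the 6 pathway lists and 3 marker lists; filled points were above the low-signal limit on both arrays, open points are bounds, thick bars are list medians and dotted lines mark 2-fold. The axis genes spread to both sides of 0 around a median of -0.08, while the striated muscle markers have a median of -6.07.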

How the data were processed

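Total RNA of whole esophagus was hybridized to 2 Affymetrix arrays. The authors deposited signal intensities made with MAS5, per the submitters' processing notes; the sources used here give no version, settings or detection calls. Genes were named by GEO's annotation of the platform, with symbols updated by Entrez ID through RefSeq (GRCm38.p6). Of 45101 probe sets, 64 controls, 932 with several symbols and 9160 unnamed here were left out of gene counts. Ratios used the limit and representative probe set described in the report. Named are every probe set of the members, Myf5 and Myod1, up to 3 measured genes with the largest ratio in each pathway list, and up to 2 of the brightest in a marker list; other markers are marked as chosen later. Members, lists and settings were chosen with earlier results of these data known. Alternatives were 3 other scalings (median-centred, quantile, loess with span 0.3), a 4-fold threshold, limits at the 25th and 75th percentile, a pseudocount of 16 in place of the limit, the median over probe sets in place of the brightest, and omission of _x_at and _s_at probe sets. The ratio and counting steps were tested on simulated data with noise below the SD between probe sets of these arrays. Changes were placed in bright genes only and the simulated arrays had no shift at low signal. The error rate of the calls in the real data was therefore not tested. A planned comparison of protein sequences was not made, and no proteins were used here. The number of arrays limits the precision. Python 3.11.15, numpy 2.4.6, pandas 2.3.3 and statsmodels 0.14.6 were used.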

Additional observations from a re-analysis of the deposited data

How the results depend on the processing

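The ratio of Fst stayed between -1.61 and -1.33 and that of Inhba between 1.18 and 1.33 (log2) in the 8 alternatives that recompute ratios. Both genes kept their 2-fold call in each, but some of these settings left a value unchanged and so do not test it. For Inhba these were the 25th percentile limit, the median over probe sets and the omission of _x_at and _s_at probe sets. For Fst they were both percentile limits and that omission. The dimmer Inhba probe set, which ran the opposite way, entered the Inhba ratio in none of the alternatives. With a 4-fold threshold 0 axis genes were lower and 0 higher. Acvr1b stayed above 0 and Acvr2a and Fstl1 below 0 in all 8, by less than 0.5, and Inhbb changed sign with loess. The axis median ranged from -0.31 to 0.15. Counts over all genes depended on the limit, which also sets how many genes are measured. Set at the 25th percentile it gave 1232 lower and 2742 higher of 16545 genes (7.45% and 16.6%). Set at the 75th it gave 383 lower and 148 higher of 7988 (4.79% and 1.85%). Without it 1704 were lower and 3548 higher of 18193 (9.37% and 19.5%). At the main limit, with 5.35% lower and 5.99% higher of 13351 genes, the counts at 4-fold were 142 and 21. Loess gave 449 higher of 13132 at 2-fold (3.42%). Under the 75th percentile limit the related ligand median was -0.92, from fewer measured genes. The cause of the other shifts was not tested. No paired analysis was possible because each genotype has 1 array. Low signal over background limits Gdf11, Acvr2b, Fstl3 and Inhbb.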
